A study of Mus musculus with 4 samples.

Results

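Loss of Lamtor1 and inhibition of mTOR by Torin1 were compared directly, by setting the array of IL-4-stimulated Lamtor1-deficient bone-marrow-derived macrophages (BMDMs) against the array of IL-4-stimulated wild-type BMDMs that also received Torin1. A gene was described where its probe was well above background on both arrays, by the scanner software's own flag, and where its levels differed 2-fold or more. Of the 23608 genes named on the array, 14150 were measured on both arrays, and 3235 of these (22.9%) lay past 2-fold. The level was higher in Lamtor1-deficient BMDMs for 1827 genes (12.9%) and higher in Torin1-treated BMDMs for 1408 genes (9.95%). The remaining 10915 genes lay within 2-fold.

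All cells came from mice labelled C57BL/6J at 10 weeks of age. Bone marrow was cultured for 6 days in L929 supernatant, a source of macrophage colony-stimulating factor, and was then stimulated for 2 days. The Lamtor1-deficient cells were labelled p18 (2400001E08Rik) -/- and received IL-4 at 50 ng/ml. In the study's methods such mice carry a floxed Lamtor1 allele and the LysM-Cre transgene, which deletes the gene in myeloid cells. The Torin1-treated cells were wild type and received IL-4 at 50 ng/ml together with Torin1 at 250 nM for those 2 days. Wild-type BMDMs with IL-4 alone (M2) and wild-type BMDMs with IFN-γ at 20 ng/ml and LPS at 100 ng/ml (M1) are given for reference. Each condition had 1 array, so no difference has a replicate check, none was tested, and a difference between arrays and a difference between conditions cannot be told apart. The genotype, the mouse and the drug differ together between the arrays compared. In a bulk culture, fewer cells of a type and less RNA per cell cannot be told apart either.

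Lamtor1 anchors the Ragulator to the surface of lysosomes. The Ragulator holds the Rag GTPases, which recruit the kinase complex mTORC1 when amino acids are plentiful. Torin1 binds the catalytic site of mTOR and blocks both of its complexes, mTORC1 and mTORC2, whereas loss of the Ragulator removes the anchor through which amino acids recruit mTORC1 to the lysosome. mTORC1 is known to promote protein, lipid and nucleotide synthesis and to restrain autophagy and lysosome formation. It acts on transcription through the sterol regulatory element-binding proteins (SREBPs), ATF4, HIF-1 and the MiT/TFE factors. mTORC2 phosphorylates Akt, which keeps FOXO factors out of the nucleus.

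Sequences upstream of the start sites are shown for members of the 2 lists that stood furthest apart on these arrays, cholesterol synthesis and the interferon response, because each list has a known regulatory element. All are from RefSeq promoters on the GRCm38.p6 build, are printed 5′ to 3′ on the gene's strand and end before the start site, and capitals mark the matched letters. The search covered 250 bases before to 50 bases after each start site. Each element was searched in a fixed form, so elements of another form or outside these bases were not counted. The interferon-stimulated response element core was searched as GAAANNGAAA on both strands. It was found in 12 of the 22 interferon list genes with a promoter sequence (54.5%), against 3.99% of all 27025 genes with one and 3.83% of the measured ones. Of these 12, the 4 whose windows follow lay past 2-fold and were higher in Torin1-treated BMDMs, and the other 8 (Bst2, Ddx58, Eif2ak2, Ifih1, Isg15, Oas1a, Oas1g and Stat2) lay within 2-fold.
Ifit3, chr19:34583382-34583441, plus strand: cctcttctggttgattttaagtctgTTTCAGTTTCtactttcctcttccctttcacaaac
Oas3, chr5:120777700-120777759, minus strand: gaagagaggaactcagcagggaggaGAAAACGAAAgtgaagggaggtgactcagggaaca
Rsad2, chr12:26456538-26456597, minus strand: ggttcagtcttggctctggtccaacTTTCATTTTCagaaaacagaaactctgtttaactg
Ifit1, chr19:34640779-34640838, plus strand: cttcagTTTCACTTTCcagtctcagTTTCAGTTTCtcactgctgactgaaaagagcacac
The Ifit1 window holds 2 copies of the core. The sterol regulatory element was searched as TCACNCCAC on both strands and was found in 1 of the 18 cholesterol list genes with a promoter sequence (5.56%), against 1.44% of all genes and 1.46% of the measured ones. That gene is Hmgcs1, which makes the HMG-CoA from which cholesterol is built.
Hmgcs1, chr13:119690189-119690247, plus strand: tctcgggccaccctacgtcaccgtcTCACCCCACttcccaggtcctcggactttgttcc
The CLEAR core, to which the MiT/TFE factors bind, was searched as TCACGTGA, which reads the same on both strands. It was found in 5 of 33 lysosomal genes (15.2%) against 1.12% of all genes and 2.05% of the measured ones. These genes were Cln3, Ctsa, Ctsd, Gla and Mcoln1, all of which lay within 2-fold. A match describes the letters in this window and does not show that a factor binds there.

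Levels are given below in units, where 100 units is the 75th percentile of the array over all probes, and the log2 ratio is Lamtor1-deficient over Torin1-treated. The M1 levels given below for Scd1, Ccl17, Ccna2, Ccnb2 and D630039A03Rik were not well above background. Levels of different genes were measured with different probes and are not compared with each other. The median log2 ratio over all measured genes was 0.09, with 25th and 75th percentiles of -0.43 and 0.61 and a range from -6.88 to 8.13. Past 4-fold lay 813 genes (456 higher without Lamtor1 and 357 under Torin1), past 8-fold 219 (155 and 64), and past 16-fold 72 (55 and 17). The split of the genes past 2-fold depended on the scaling. Of these genes 56.5% were higher in Lamtor1-deficient BMDMs with the shift to the 75th percentile, 76.4% when the arrays were shifted to their medians and 44.3% with the 75th percentile of the probes detected, that is well above background, on all 4 arrays, and the median of all genes was then 0.40 and -0.07. Counts for a list are therefore read against the share of all genes, and its median against the median of all genes. Probes spotted 8 times or more gave a technical SD of 0.092 for a log2 ratio where well above background on both arrays, with a 95th percentile of 0.362 over 259 probes, so a 2-fold difference exceeded the noise between spots. This SD covers neither labelling nor culture. No spot was saturated, and 50.9% (Lamtor1-deficient) and 55.4% (Torin1-treated) of probes were well above background. With normexp background correction, ratios that rest on a level near the background on one side were smaller. The log2 ratio of Scd2 was then 7.24 in place of 8.13.

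**Figure D1:**
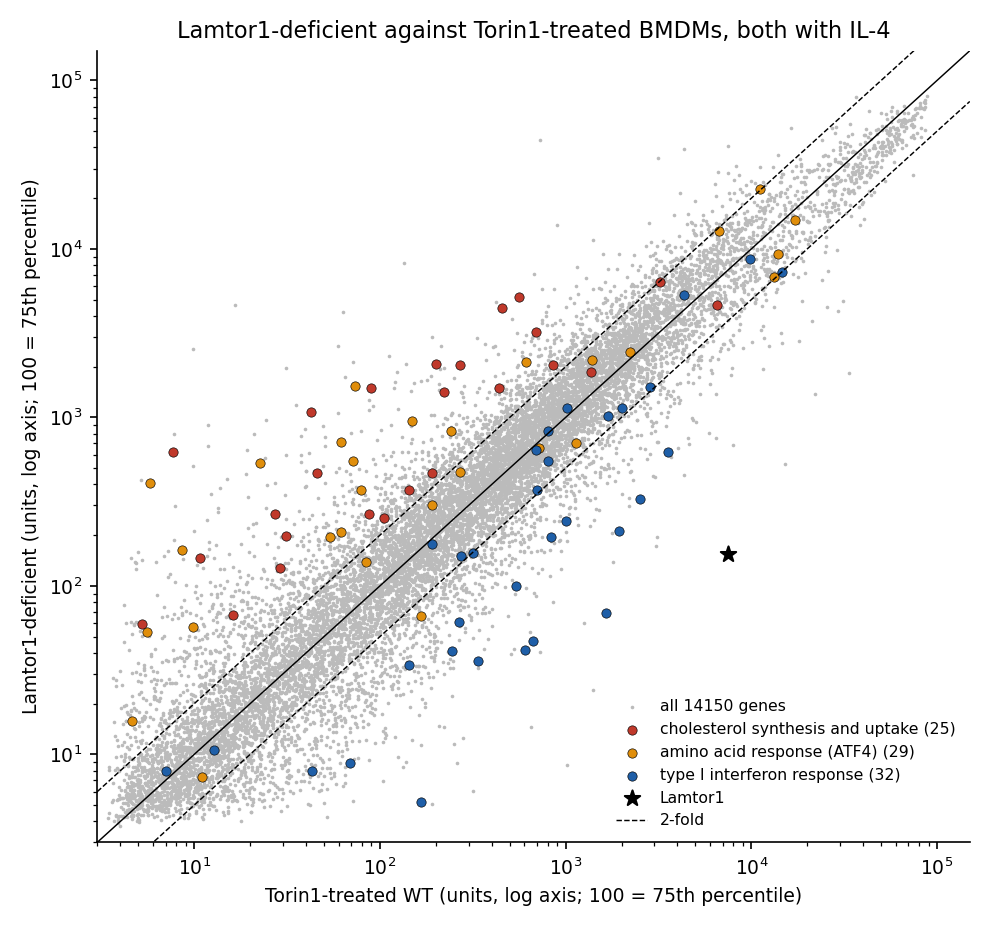
Level of each gene in Lamtor1-deficient (vertical axis) against Torin1-treated BMDMs (horizontal axis), both in units on log axes, with 1 point per gene, for the 14150 genes measured on both arrays. The solid line marks equal levels and the dashed lines 2-fold. Most cholesterol list genes lie above the upper dashed line, 18 of 32 interferon list genes lie below the lower one, and Lamtor1 lies far below it.

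Lamtor1 itself was measured at 155.4 units in Lamtor1-deficient and 7496 units in Torin1-treated BMDMs, a 48.2-fold difference, beside 6634 units in M2 and 5122 in M1. It had the fourth lowest log2 ratio of all genes (-5.59), and the low level was on the array labelled Lamtor1-deficient. Among the 32 measured genes of the Ragulator, the Rag GTPases and the mTOR complexes, 3 were 2-fold or more higher without Lamtor1 and 2 under Torin1, with a median log2 ratio of 0.22. The other Ragulator subunits Lamtor2, Lamtor3, Lamtor4 and Lamtor5 lay within 2-fold, with log2 ratios of 0.85, 0.58, 0.22 and 0.52. Past 2-fold were Prr5l (2.25), a partner of mTORC2, Rragd (1.86, or 1.20 with normexp), one of the Rag GTPases, and Sesn1 (1.71), a leucine-sensing inhibitor of mTORC1 signalling, all higher in Lamtor1-deficient BMDMs. Besides Lamtor1, Rictor, the defining subunit of mTORC2, was 2-fold or more higher in Torin1-treated BMDMs (-1.50). Mtor (-0.16) and Rptor (0.61) were within 2-fold.

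The widest separation among the lists was in cholesterol synthesis and uptake, genes that SREBP-2 activates when sterols are low. Of 25 measured genes, 22 were 2-fold or more higher in Lamtor1-deficient BMDMs and 0 were higher in Torin1-treated BMDMs, against 12.9% and 9.95% of all genes. The median log2 ratio was 2.65. The median against M2 was 0.57 without Lamtor1 and -1.56 under Torin1, 2 comparisons that share the M2 array. Across the alternatives the list median relative to all genes ran from 2.12 to 2.58.

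Idi1, which supplies an isoprenoid building block, was at 1069 units in Lamtor1-deficient, 42.77 in Torin1-treated, 763.7 in M2 and 19.76 in M1 BMDMs (log2 ratio 4.64). Sqle, the squalene epoxidase, was at 1495, 89.54, 820.9 and 159.2 units (4.06). In both of these the Torin1-treated array was far below the other IL-4 arrays, which lay less than 2-fold apart. Cyp51 (3.77, or 2.81 with normexp), Hsd17b7 (3.52, or 1.87 with normexp) and Tm7sf2 (3.36) act on later sterol intermediates. Fdps, which makes farnesyl diphosphate, was at 4473 units against 452 (3.31). The promoter of Hmgcs1 printed above belongs to a gene at 3196 units against 695 (2.20). Insig1, which retains SREBPs in the endoplasmic reticulum, was at 197 against 31.29 units (2.65). The genes within 2-fold were Ebp (0.98), Scap (0.43) and Srebf2 (-0.51). Srebf2, which encodes SREBP-2, was thus slightly lower where its target list was higher, at 4616 against 6552 units.

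Fatty acid synthesis and desaturation showed the same direction, with 9 of 15 measured genes 2-fold or more higher in Lamtor1-deficient BMDMs and 0 higher in Torin1-treated BMDMs (median log2 ratio 1.35). The median relative to all genes fell from 1.26 to 0.43 with no filter on dim probes, and stayed above 1 under the other alternatives. Scd2 and Scd1, which desaturate stearate to oleate, had the first and the fourth highest ratios of all genes. Scd2 was at 4656 units in Lamtor1-deficient, 16.67 in Torin1-treated, 820.7 in M2 and 1124 in M1 BMDMs, a 279-fold difference. Scd1 was at 426, 5.182, 20.97 and 5.283 units (82.2-fold, or a log2 ratio of 4.68 in place of 6.36 with normexp). For both genes the Lamtor1-deficient array was the highest of the 4. Scd2 was lowest in Torin1-treated BMDMs, and Scd1 was not well above background in M1. Acsl3, which activates fatty acids (4.35, or 3.36 with normexp), Elovl6, an elongase (3.45, or 2.18 with normexp), Acaca, the first committed enzyme (2.81), and Fasn, the synthase (2.22), also lay past 2-fold. Fasn was near the background in Torin1-treated BMDMs, at 5.847 units against 27.33, and its ratio was 1.03 with normexp. Fads2 was well above background only in Lamtor1-deficient BMDMs, at least 3.83-fold higher. Srebf1, which encodes SREBP-1, was at 70.39 against 59.86 units (0.23). Dgat2, which makes triglycerides and stands on the list of PPARγ and lipid uptake genes, was at 792.7 units against 21.09 (5.23, or 4.61 with normexp), beside 65.72 in M2.

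**Figure D2:**
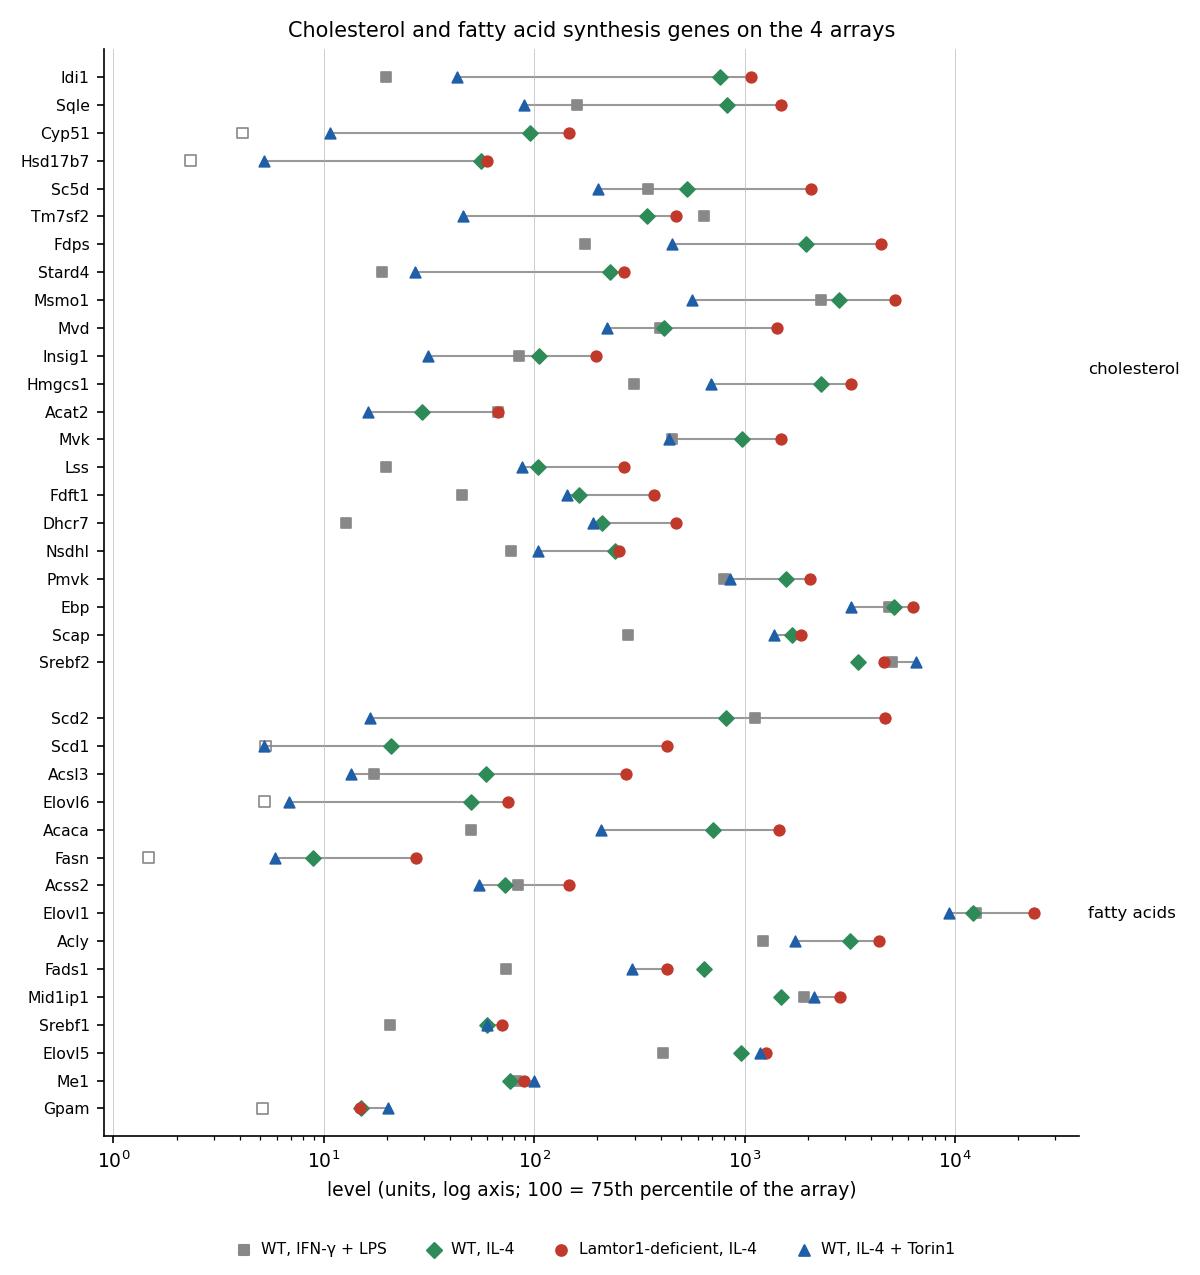
Level of measured genes of cholesterol (upper block) and fatty acid synthesis (lower block) on the 4 arrays, in units on a log axis, sorted by the ratio between the arrays compared, which the grey line joins. Open symbols were not well above background. The red circles (Lamtor1-deficient) lie to the right of the blue triangles (Torin1-treated) for every cholesterol gene drawn except Srebf2 and for 13 of 15 fatty acid genes.

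Other lipid genes were divided between the arrays. Of 16 measured LXR target and lipoprotein genes, 3 were 2-fold or more higher without Lamtor1 and 3 under Torin1, with a median log2 ratio of -0.44. The counts were 4 and 2 when the arrays were shifted to their medians. They were 3 and 5 with the 75th percentile of the probes detected on all 4 arrays. Higher in Lamtor1-deficient BMDMs were Ch25h, which makes 25-hydroxycholesterol (1.38), Lpl, the lipoprotein lipase (1.33), and Lpcat3, a phospholipid-remodelling enzyme (1.23). Higher in Torin1-treated BMDMs were the apolipoproteins Apoc1 (-2.08, or -1.44 with normexp) and Apoc2 (-1.76) and Mylip, a ubiquitin ligase (-1.11, or -0.99 as the median of its probes). Lpl was at 1961 and 782.2 units beside 34540 in M2, so that its level was low on both arrays compared. Abca1, which exports cholesterol, lay within 2-fold at 325.5 against 596.6 units (-0.87), with 1265 in M2. It lay past 2-fold with quantile normalization (-1.01) and with the 75th percentile of the probes detected on all 4 arrays (-1.03). The receptors Nr1h3 and Nr1h2 lay within 2-fold (0.63 and -0.27, the second 0.04 when the arrays were shifted to their medians). Of 13 PPARγ and lipid uptake genes, Dgat2 was 2-fold or more higher in Lamtor1-deficient and 2 were higher in Torin1-treated BMDMs, Plin2, which coats lipid droplets (-1.43), and Pnpla2, the main triglyceride lipase (-1.20). The list median was -0.15, and the counts were 3 and 1 when the arrays were shifted to their medians. Of 17 genes of mitochondrial fatty acid oxidation, 2 were 2-fold or more higher in Lamtor1-deficient BMDMs, Decr1 (1.39) and Acaa2 (1.27), and 0 in Torin1-treated BMDMs (median 0.44). The first count was 6 when the arrays were shifted to their medians.

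Genes of the amino acid response, which ATF4 activates, were also higher in Lamtor1-deficient BMDMs. Of 29 measured genes, 16 were 2-fold or more higher there and 1 in Torin1-treated BMDMs, with a median log2 ratio of 1.76. The list median relative to all genes fell from 1.67 to 0.96 with normexp and stayed above 0 under every alternative run. Mthfd2, a mitochondrial folate enzyme, was at 406.4 units in Lamtor1-deficient, 5.794 in Torin1-treated, 142.5 in M2 and 206.7 in M1 BMDMs (70.1-fold, or a log2 ratio of 4.31 in place of 6.13 with normexp). Phgdh, the first enzyme of serine synthesis, was at 539.7, 22.62, 121.2 and 45.37 units (4.58, or 3.86 with normexp). Asns, the asparagine synthetase, was at 1533, 72.93, 405.1 and 341.5 units (4.39). In all 3 the order among the IL-4 arrays was Lamtor1-deficient, M2 and Torin1-treated. Chac1, which cleaves glutathione (4.25, or 3.08 with normexp), Psat1 of serine synthesis (3.54) and Aldh18a1 of proline synthesis (3.26, or 1.75 with normexp) followed. Atf4 itself was at 22520 against 11140 units (1.02). The gene higher in Torin1-treated BMDMs was Slc7a11, the cystine importer, at 66.53 against 165.9 units (-1.32), beside 24.41 in M2. Stc2 was well above background only in Lamtor1-deficient BMDMs, at least 8.86-fold higher.

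Of 20 cytosolic tRNA synthetases, 6 were 2-fold or more higher without Lamtor1 and 0 under Torin1 (median 0.65), led by Aars (2.01), the alanyl enzyme. The first count was 9 when the arrays were shifted to their medians and 3 with the 75th percentile of the probes detected on all 4 arrays. Chaperones and unfolded protein response genes of the endoplasmic reticulum had the same direction, with 15 of 24 higher without Lamtor1 and 0 under Torin1 (median 1.29). Manf (2.18), Dnajc3 (2.15) and Dnajb11 (2.06) had the largest ratios. Hspa5, the main chaperone of this compartment, was at 21900 against 8872 units (1.30), with 20260 in M2, and Xbp1, a transcription factor of the response, was at 13870 against 5365 (1.37). Of 18 genes of arginine and polyamine metabolism, 7 were higher without Lamtor1 and 3 under Torin1 (median 0.75). The first group held Slc7a1, an arginine transporter (2.67), and Srm (2.14) and Odc1 (1.16) of polyamine synthesis. The second group held Ass1, which regenerates arginine from citrulline (-1.60), and Smox, the spermine oxidase (-1.34).

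Ribosomal protein genes, whose mRNAs are translated under mTORC1 control, differed little but in 1 direction. Of 83 measured genes on this list, 81 had a log2 ratio below 0, and the median was -0.36. In Torin1-treated BMDMs 4 were 2-fold or more higher, from -1.12 to -1.06. These were Rpl5, Rps15, Rps13 and Eef2, a translation elongation factor that the list also holds. As the median of their probes, the log2 ratio was -0.90 for Rps15 and -0.70 for Rps13. When the arrays were shifted to their medians, 51 of the 83 were below 0, the list median was -0.05 and 0 were past 2-fold, and with quantile normalization 0 were past 2-fold. Probes for these genes can also detect transcripts of processed pseudogenes. Of 36 Myc and ribosome biogenesis genes, 8 were higher without Lamtor1 and 1 under Torin1 (median 0.35). Nhp2 (1.65) and Pes1 (1.51), which process ribosomal RNA, and Myc (1.32) were higher, and Polr1c, a subunit of RNA polymerases, was lower (-1.15). Of 31 constitutive proteasome subunits, 3 were higher without Lamtor1 and 0 under Torin1 (median 0.62), with Psmd14 furthest (1.98). The first count was 12 when the arrays were shifted to their medians, and that of the Myc list was 15.

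Mitochondrial genes had medians above that of all genes. Of 50 subunits of oxidative phosphorylation, 16 were 2-fold or more higher without Lamtor1 and 0 under Torin1, with a median log2 ratio of 0.85. The first count was 30 when the arrays were shifted to their medians and 11 with the 75th percentile of the probes detected on all 4 arrays. Ndufs8 of complex I (2.44), Ndufa1 of the same complex (2.05) and Cox5a of complex IV (1.93) had the largest ratios. Of 20 genes of the TCA cycle and itaconate synthesis, 9 were higher without Lamtor1 and 0 under Torin1 (median 0.72), led by Idh3a (1.62) and Mdh1 (1.40). Acod1, which makes itaconate, was at 1856 against 1963 units (-0.08), with 364.6 in M2 and 27530 in M1. Glycolysis was nearer to all genes, with 4 of 19 genes higher without Lamtor1 and 0 under Torin1 (median 0.16). These were Aldoc (3.89), Hk2 (1.24), Ldha (1.24) and a probe named Pgk1 (1.41), which the array annotation places on chromosome 3, away from the X chromosome where Pgk1 lies. Of 17 hypoxia response genes, 3 were higher without Lamtor1 and 1 under Torin1 (median 0.74), and the first count was 10 when the arrays were shifted to their medians. Car9 (1.78), Egln3 (1.67, or 0.99 with normexp) and Pdk1 (1.63) were in the first group. The exception was Vegfa, the angiogenic growth factor, at 886 against 3466 units (-1.97), beside 537.6 in M2.

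The interferon response stood at the other end. Of 32 measured type I interferon response genes, 18 were 2-fold or more higher in Torin1-treated BMDMs and 0 were higher in Lamtor1-deficient BMDMs, with a median log2 ratio of -1.53. The median against M2, again with a shared M2 array, was -0.59 without Lamtor1 and 0.50 under Torin1. The count higher in Torin1-treated BMDMs was 16 when the arrays were shifted to their medians and 21 with the 75th percentile of the probes detected on all 4 arrays.

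Ifi44 was at 5.187 units in Lamtor1-deficient, 165.4 in Torin1-treated, 68.12 in M2 and 2367 in M1 BMDMs (31.9-fold, or a log2 ratio of -3.38 in place of -4.99 with normexp). Oas2, a sensor of double-stranded RNA, was at 68.63, 1653, 688.3 and 8835 units (24.1-fold). Ifit3, which binds foreign RNA and whose upstream element is printed above, was at 41.42, 605.2, 110.3 and 17840 units (-3.87). For these the Lamtor1-deficient array was the lowest and M1 the highest. Oas3, also printed above, was at 47.3 against 669.5 units (-3.82), Rsad2, the antiviral enzyme viperin, at 211.3 against 1934 (-3.19), and Ifit1 at 40.97 against 243.5 (-2.57). Irf7, which amplifies interferon production, was at 36.02 against 337.3 units (-3.23). Genes within 2-fold included factors that carry the interferon signal, Stat2 (0.03) and Irf9 (-0.72), and Isg15, a ubiquitin-like protein (-0.82). Members of the Ifit, Oas and Mx families are similar in sequence, so that a probe may detect more than one.

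**Figure D3:**
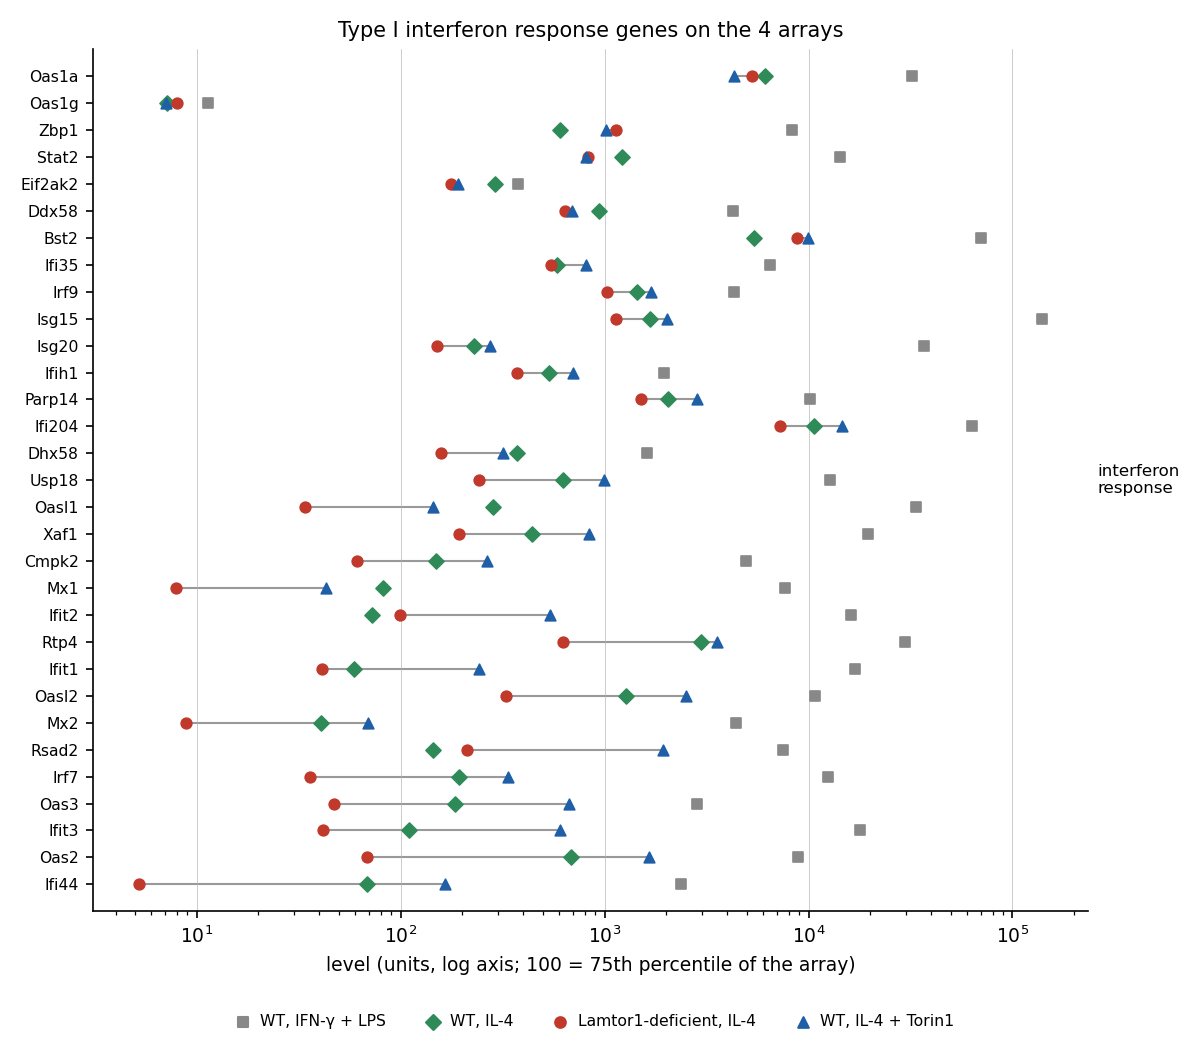
Level of type I interferon response genes on the 4 arrays, in units on a log axis, sorted by the ratio between the arrays compared, which the grey line joins. For some genes the red circles (Lamtor1-deficient) and blue triangles (Torin1-treated) lie close together, and over the 18 genes past 2-fold the circles lie to the left of the triangles.

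Interferon-related families did not all follow. Of 13 guanylate-binding proteins and immunity-related GTPases, 1 was 2-fold or more higher without Lamtor1 and 2 under Torin1 (median -0.37). Tgtp2 (-1.84) and Gbp6 (-1.82) were lower in Lamtor1-deficient BMDMs, and Gbp11 was at 29.73 against 5.395 units (2.46, or 1.14 with normexp). Of 15 genes of MHC class I and the immunoproteasome, 0 were higher without Lamtor1 and 2 under Torin1 (median -0.33), H2-Q4 (-2.49) and Tap2, a peptide transporter (-1.36). Of 10 MHC class II genes, 2 were higher in Lamtor1-deficient BMDMs, the peptide-loading chains H2-DMb1 (1.86) and H2-DMa (1.24), and 1 in Torin1-treated BMDMs, H2-Oa (-1.65). H2-Ob (at least 8.66-fold higher) and H2-Eb2 (2.67) were well above background only in Torin1-treated BMDMs. The median was 0.32. H2-Eb1 was at 8074 and 7714 units, beside 51410 in M2, and so was low on both arrays.

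Among IL-4-induced genes, 11 of 24 measured were 2-fold or more higher without Lamtor1 and 1 under Torin1, with a median log2 ratio of 0.90. The median against M2 was -1.42 without Lamtor1 and -2.39 under Torin1, so that it was below M2 on both arrays. These comparisons share the M2 array. Retnla, which encodes RELMα, was well above background on 1 array of this pair only. It was at 14900 units in Lamtor1-deficient BMDMs, 67200 in M2, and not well above background in Torin1-treated and M1 BMDMs, so that its level was at least 4450-fold higher in Lamtor1-deficient than in Torin1-treated BMDMs. This bound was the largest of all genes. The chemokine Ccl17 was at 903.7 units in Lamtor1-deficient, 11.79 in Torin1-treated, 148 in M2 and 2.841 in M1 BMDMs (76.7-fold, or a log2 ratio of 5.15 in place of 6.26 with normexp). Ccl24 was at 429 against 14.92 units (4.85, or 3.94 with normexp), with 1708 in M2, and Ccl22 at 142.9 against 5.214 units (4.78, or 3.10 with normexp), with an M2 level, 3.146 units, that was not well above background. Clec10a, a lectin, was also higher in Lamtor1-deficient BMDMs, at 893.2 against 49.1 units (4.19), with 4795 in M2. Rnase2a was at 1770 against 188.5 units (3.23), with 36840 in M2. Klf4, a transcription factor of IL-4-stimulated macrophages, was at 760.7 against 50.47 units (3.91), with 850.6 in M2 and 5514 in M1. The exception was Mgl2, a lectin related to Clec10a, at 6552 against 24020 units (-1.87), with 32910 in M2. Mrc1, the mannose receptor, was at 4725 against 2023 units (1.22, or 0.99 with quantile normalization), with 12640 in M2. Chil3 was level, at 56930 against 56660 units, and Il10 stayed below that background limit on both arrays.

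Of 12 genes of the IL-4 receptor and STAT6 signalling, 3 were higher without Lamtor1 and 1 under Torin1 (median 0.66). Il13ra1, a receptor chain (2.81, or 1.43 with normexp), Ptpn1 (1.14) and Jak2 (1.05) were in the first group, and Irs2, an adaptor of the insulin and IL-4 receptors, in the second (-1.25). The first count was 6 when the arrays were shifted to their medians and 1 with quantile normalization. Stat6 itself was at 1470 against 1488 units (-0.02). Of 10 CC chemokines, 8 were higher without Lamtor1 and 1 under Torin1, with a median of 1.88. Ccl12 (4.81, or 2.93 with normexp), Ccl6 (3.18), Ccl2 (2.89) and Ccl7 (2.54) attract monocytes and other leukocytes. Ccl2 was at 3811 units in Lamtor1-deficient, 514.1 in Torin1-treated, 1659 in M2 and 91830 in M1 BMDMs. Ccl5 ran the other way, at 1835, 33720, 4602 and 122600 units (-4.20). Ccl11 was well above background only in Lamtor1-deficient BMDMs, at least 24.5-fold higher. Of 8 CXC chemokines, the neutrophil attractants Cxcl5 (4.74) and Cxcl1 (3.75, or 2.56 with normexp) were higher in Lamtor1-deficient BMDMs and Cxcl16 was higher in Torin1-treated BMDMs (-2.27), with a median of -0.05. Cxcl3 (at least 6.08-fold higher) and Cxcl10 (2.05) were well above background only in Lamtor1-deficient BMDMs, and Cxcl9 (1.82) only in Torin1-treated BMDMs.

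**Figure D4:**
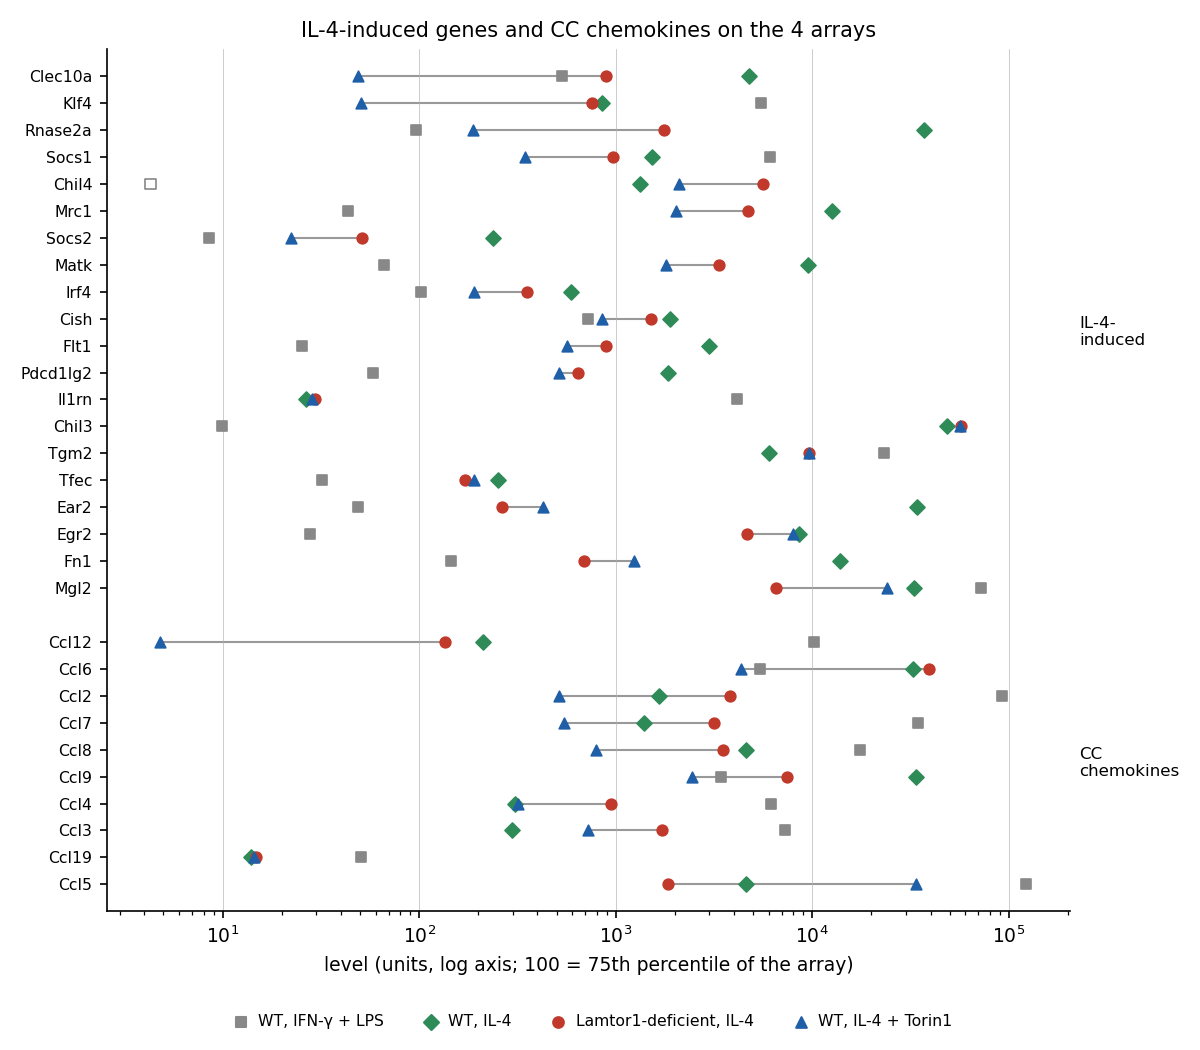
Level of IL-4-induced genes (upper block) and CC chemokines (lower block) on the 4 arrays, in units on a log axis, sorted by the ratio between the arrays compared, which the grey line joins. Open symbols were not well above background. Among the CC chemokines, 8 of 10 red circles (Lamtor1-deficient) lie 2-fold or more to the right of the blue triangle (Torin1-treated), and Ccl5 lies the other way.

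Inflammatory genes had no common direction. Of 15 measured M1 genes, 3 were 2-fold or more higher without Lamtor1 and 4 under Torin1 (median -0.68). The second count was 2 when the arrays were shifted to their medians, and the list median relative to all genes went from -0.77 to -0.16 with no filter on dim probes. Nos2, the inducible nitric oxide synthase, was at 1865 against 1647 units (0.18, or -0.06 with quantile normalization), with 38.36 in M2 and 58070 in M1. Il1a (2.40, or 1.48 with normexp) and Il18 (1.13) were higher in Lamtor1-deficient BMDMs, and so was Il6 (1.93), which rested on low levels, 17.05 against 4.48 units, and had a ratio of 0.73 with normexp. Ptgs2, the inducible cyclooxygenase (-2.27), Marco, a scavenger receptor (-1.79), Tnf (-1.28, or -0.96 with normexp) and Irf1 (-1.26) were higher in Torin1-treated BMDMs. Il12b stayed below that background limit on both arrays. Of 17 NF-κB genes and feedback inhibitors, 2 were higher without Lamtor1 and 3 under Torin1 (median -0.32). The first were Tnip3 (1.38), a feedback inhibitor, and Bcl3, at 1256 against 622 units, and the others were the inhibitors Dusp1 (-1.73), Zc3h12a (-1.56) and Tnfaip3 (-1.16). Of 15 Toll-like receptor genes the counts were 2 and 3 (median -0.03), with Tlr1 (2.55) and Tlr3 (1.04, or 0.42 with normexp) higher in Lamtor1-deficient and Tlr13 (-1.93), Cd14 (-1.86) and Tlr2 (-1.35) higher in Torin1-treated BMDMs. Of 15 inflammasome genes the counts were 1 and 1 (median 0.05), or 3 and 1 when the arrays were shifted to their medians, and Nlrp1a (-2.66) had a log2 ratio of -0.99 as the median of its probes.

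Receptors and secreted defence proteins were likewise divided. Of 6 chemokine receptors, Ccr7, a homing receptor (2.15), was higher in Lamtor1-deficient BMDMs, and C5ar1, the receptor for complement C5a (-2.92), and Ccrl2 (-1.50) were among the 3 higher in Torin1-treated BMDMs (median -1.07). More of these receptors were well above background on 1 array only, 3 in Lamtor1-deficient BMDMs, led by Ackr3 (at least 8.73-fold higher), and 4 in Torin1-treated BMDMs, led by Fpr2, a formyl peptide receptor (at least 10.3-fold higher). Of 17 complement genes, 8 were higher without Lamtor1 and 3 under Torin1 (median 0.67). C1s1 (3.03, or 1.96 with normexp), Cfp, which is properdin (2.76), and C1qc (2.51) were in the first group. Cfb, factor B of the alternative pathway, had the second lowest ratio of all genes, at 24.14 units in Lamtor1-deficient, 1400 in Torin1-treated, 345.2 in M2 and 17300 in M1 BMDMs (58.0-fold, or a log2 ratio of -5.21 in place of -5.86 with normexp). Of 10 C-type lectin receptors the counts were 3 and 2 (median 0.06). Colec12 (2.68), Clec4a3 (1.48) and Clec4a1 (1.33) were higher in Lamtor1-deficient BMDMs. Clec4n, at 193.9 against 3116 units (-4.01), and Clec4d, at 4909 against 31030 (-2.66), were higher in Torin1-treated BMDMs. Of 17 scavenger and uptake receptors the counts were 5 and 3 (median -0.28), with Cd5l (3.29) and Tyro3 (2.45, or 1.76 with normexp) higher in Lamtor1-deficient and Stab1 (-3.19) higher in Torin1-treated BMDMs. Of 7 Fc receptor genes only Fcgr4 lay past 2-fold (1.24, list median -0.35).

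Of 16 eicosanoid genes, 4 were higher without Lamtor1 and 3 under Torin1 (median 0.59). The counts were 7 and 2 when the arrays were shifted to their medians, and the list median relative to all genes went from 0.50 to 0.18 with normexp. The 2 cyclooxygenases differed in direction, with Ptgs1 at 1502 against 118.9 units (3.66) and Ptgs2 lower, as given above. Pla2g7, which breaks down platelet-activating factor, was at 530.2 units in Lamtor1-deficient, 15150 in Torin1-treated, 9302 in M2 and 15370 in M1 BMDMs (28.6-fold). Here the Lamtor1-deficient array alone was low. Of 13 costimulatory and checkpoint genes the counts were 2 and 3 (median -0.05). Havcr2, which encodes TIM-3 (3.47), was higher in Lamtor1-deficient BMDMs, and Vsir (-2.23) and Cd274, which encodes PD-L1 (-1.80), were higher in Torin1-treated BMDMs. Of 10 purinergic receptors and ectonucleotidases the counts were 3 and 1 (median 0.37), with P2ry14 (2.09) at one end and the adenosine receptor Adora2a (-2.93, or -2.23 with normexp) at the other. Of 17 macrophage growth factor genes the counts were 2 and 2 (median -0.02), with Pdgfa (2.41) and Vegfc (1.99) against Vegfa and Csf3r (-1.07).

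Lysosomal genes belong to the compartment at which Lamtor1 sits. Of 43 hydrolases and membrane proteins, 7 were 2-fold or more higher without Lamtor1 and 1 under Torin1, with a median log2 ratio of 0.33. The first count was 15 when the arrays were shifted to their medians and 6 with the 75th percentile of the probes detected on all 4 arrays. Ctsc, a protease that activates granule enzymes (2.13), Galns (2.06) and Gusb (1.83), both hydrolases of glycosaminoglycans, were higher in Lamtor1-deficient BMDMs. Ctsk, the cathepsin of bone resorption, was higher in Torin1-treated BMDMs (-1.56). Of 18 V-ATPase genes, Atp6v1h lay past 2-fold (1.35, list median 0.38), and 5 did when the arrays were shifted to their medians. Of 9 MiT/TFE and folliculin genes, Rragd was higher in Lamtor1-deficient and Mitf in Torin1-treated BMDMs (-1.45), with a median of 0.11. Rragd, itself a target of these factors, was at 59.27 units in Lamtor1-deficient, 16.28 in Torin1-treated and 6.328 in M2 BMDMs.

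Of 35 autophagy genes, 1 was 2-fold or more higher without Lamtor1 and 4 under Torin1 (median -0.42). Atg9a (-2.08), Atg2a (-1.90), Map1lc3a (-1.53) and Wipi1 (-1.08, or -0.70 as the median of its probes) act in the growth of the autophagosome membrane, and Atg10 (1.23) was the exception. The share higher in Torin1-treated BMDMs, 11.4%, was near the 9.95% of all genes, and 3 were higher on each side when the arrays were shifted to their medians. FOXO targets and insulin pathway genes had 8 of 30 higher in Torin1-treated and 2 in Lamtor1-deficient BMDMs (median -0.35), and 6 and 4 when the arrays were shifted to their medians. Pik3ip1 (-2.25, or -1.18 with normexp), Pdk4 (-1.84), Cat, the catalase (-1.51), and Cdkn1b (-1.43) were among the 8. Sesn1 (1.71) and Bcl2l11 (1.07) were the 2. Another 4 genes were well above background only in Lamtor1-deficient BMDMs, led by Grb10 (at least 2.99-fold higher), and 0 only in Torin1-treated BMDMs. The list median relative to all genes went from -0.44 to -0.08 with no filter on dim probes and to -0.02 with dim signals raised to the lowest level well above background, and the count higher in Torin1-treated BMDMs was 12 with quantile normalization. Il7r, another known FOXO target, lay within 2-fold (-0.61).

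Cell cycle genes were read as 4 lists, and the difference between their counts was not tested. Of 35 genes of mitosis and chromosome segregation, 14 were 2-fold or more higher without Lamtor1 and 1 under Torin1 (median 0.62), and 16 and 0 when the arrays were shifted to their medians. Ccna2 was at 70.67 units in Lamtor1-deficient, 12.01 in Torin1-treated, 152.9 in M2 and 1.392 in M1 BMDMs (2.56, or 1.76 with normexp), and Ccnb2 at 102.1, 18.96, 176.9 and 7.424 units (2.43, or 1.78 with normexp). Both are cyclins that drive mitosis, and both were highest in M2. Of 38 genes of DNA replication, 8 were higher without Lamtor1 and 4 under Torin1 (median -0.01). The counts were 10 and 0 when the arrays were shifted to their medians (median 0.30), and 7 and 5 with quantile normalization. E2f2, an activator of S-phase genes (3.02), and Tk1, a thymidine kinase (2.60, or 1.93 with normexp), were at one end, and Cdt1 (-1.30) and Pold1 (-1.28) at the other. Of the MCM helicase subunits, Mcm5 lay just past the threshold on the side of Torin1, and the others ran from Mcm7 (-0.59) to Mcm3 (0.03). Of 19 CDK inhibitors and D-type cyclins the counts were 6 and 3 (median 0.07). The D-type cyclins Ccnd1 (1.99), Ccnd2 (1.72) and Ccnd3 (1.56) were higher in Lamtor1-deficient BMDMs, and the CDK inhibitors were divided, with Cdkn2a (2.43), Cdkn2b (1.05) and Cdkn1c higher in Lamtor1-deficient and Cdkn1a (-1.69) and Cdkn1b in Torin1-treated BMDMs. Cdkn1c was at 41040 units in Lamtor1-deficient, 7473 in Torin1-treated, 87.53 in M2 and 471.8 in M1 BMDMs (2.46). It was thus far above M2 on both arrays compared. Of 20 replication-linked histone genes, 0 were higher without Lamtor1 and 5 under Torin1 (median -0.34), led by H1f4 (-2.56) and H4c8 (-2.51), and 5 and 4 when the arrays were shifted to their medians. Histone genes are near-identical copies, and their probes may not tell them apart.

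Of 31 NRF2, glutathione and thioredoxin genes, 3 were higher without Lamtor1 and 4 under Torin1 (median -0.20). The counts were 2 and 7 with the 75th percentile of the probes detected on all 4 arrays, 2 and 6 with quantile normalization, and 4 and 4 when the arrays were shifted to their medians. Gclm, which limits glutathione synthesis, was lower in Lamtor1-deficient BMDMs (-1.58), and the peroxiredoxin Prdx2 was higher (1.43). Of 19 iron and heme genes the counts were 5 and 2 (median 0.03). Higher in Lamtor1-deficient BMDMs were Hfe, which restrains uptake by the transferrin receptor (3.17), Tfrc, that receptor (2.76, or 4.04 as the median of its probes), Steap3, a ferrireductase (1.67, or 0.93 as the median of its probes), Trf, which is transferrin (1.27), and Aco1 (1.23). Higher in Torin1-treated BMDMs were Slc40a1, which exports iron, at 249.4 against 1046 units (-2.07), and Blvrb, a biliverdin reductase (-1.39). Of 22 collagen and matrix genes the counts were 9 and 2 (median 0.29), with Col6a2 (3.73, or 2.92 with normexp) and Col6a1 (3.66) furthest. Of 17 matrix metalloproteinases and inhibitors the counts were 5 and 5 (median 0.26). The proteases Mmp8 (-5.49, or -4.55 with normexp), Mmp13 (-3.12) and Mmp12 (-1.81) were higher in Torin1-treated BMDMs, whereas the inhibitors Timp1 (1.34), Timp2 (1.67) and Timp3 (1.32) were higher in Lamtor1-deficient BMDMs. Mmp8 was at 14.48 units in Lamtor1-deficient, 652.3 in Torin1-treated, 117.6 in M2 and 147.6 in M1 BMDMs. Of 15 cell fusion genes the counts were 3 and 2 (median 0.14), with Acp5, the tartrate-resistant phosphatase, at 13780 against 895.3 units (3.94).

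**Figure D5:**
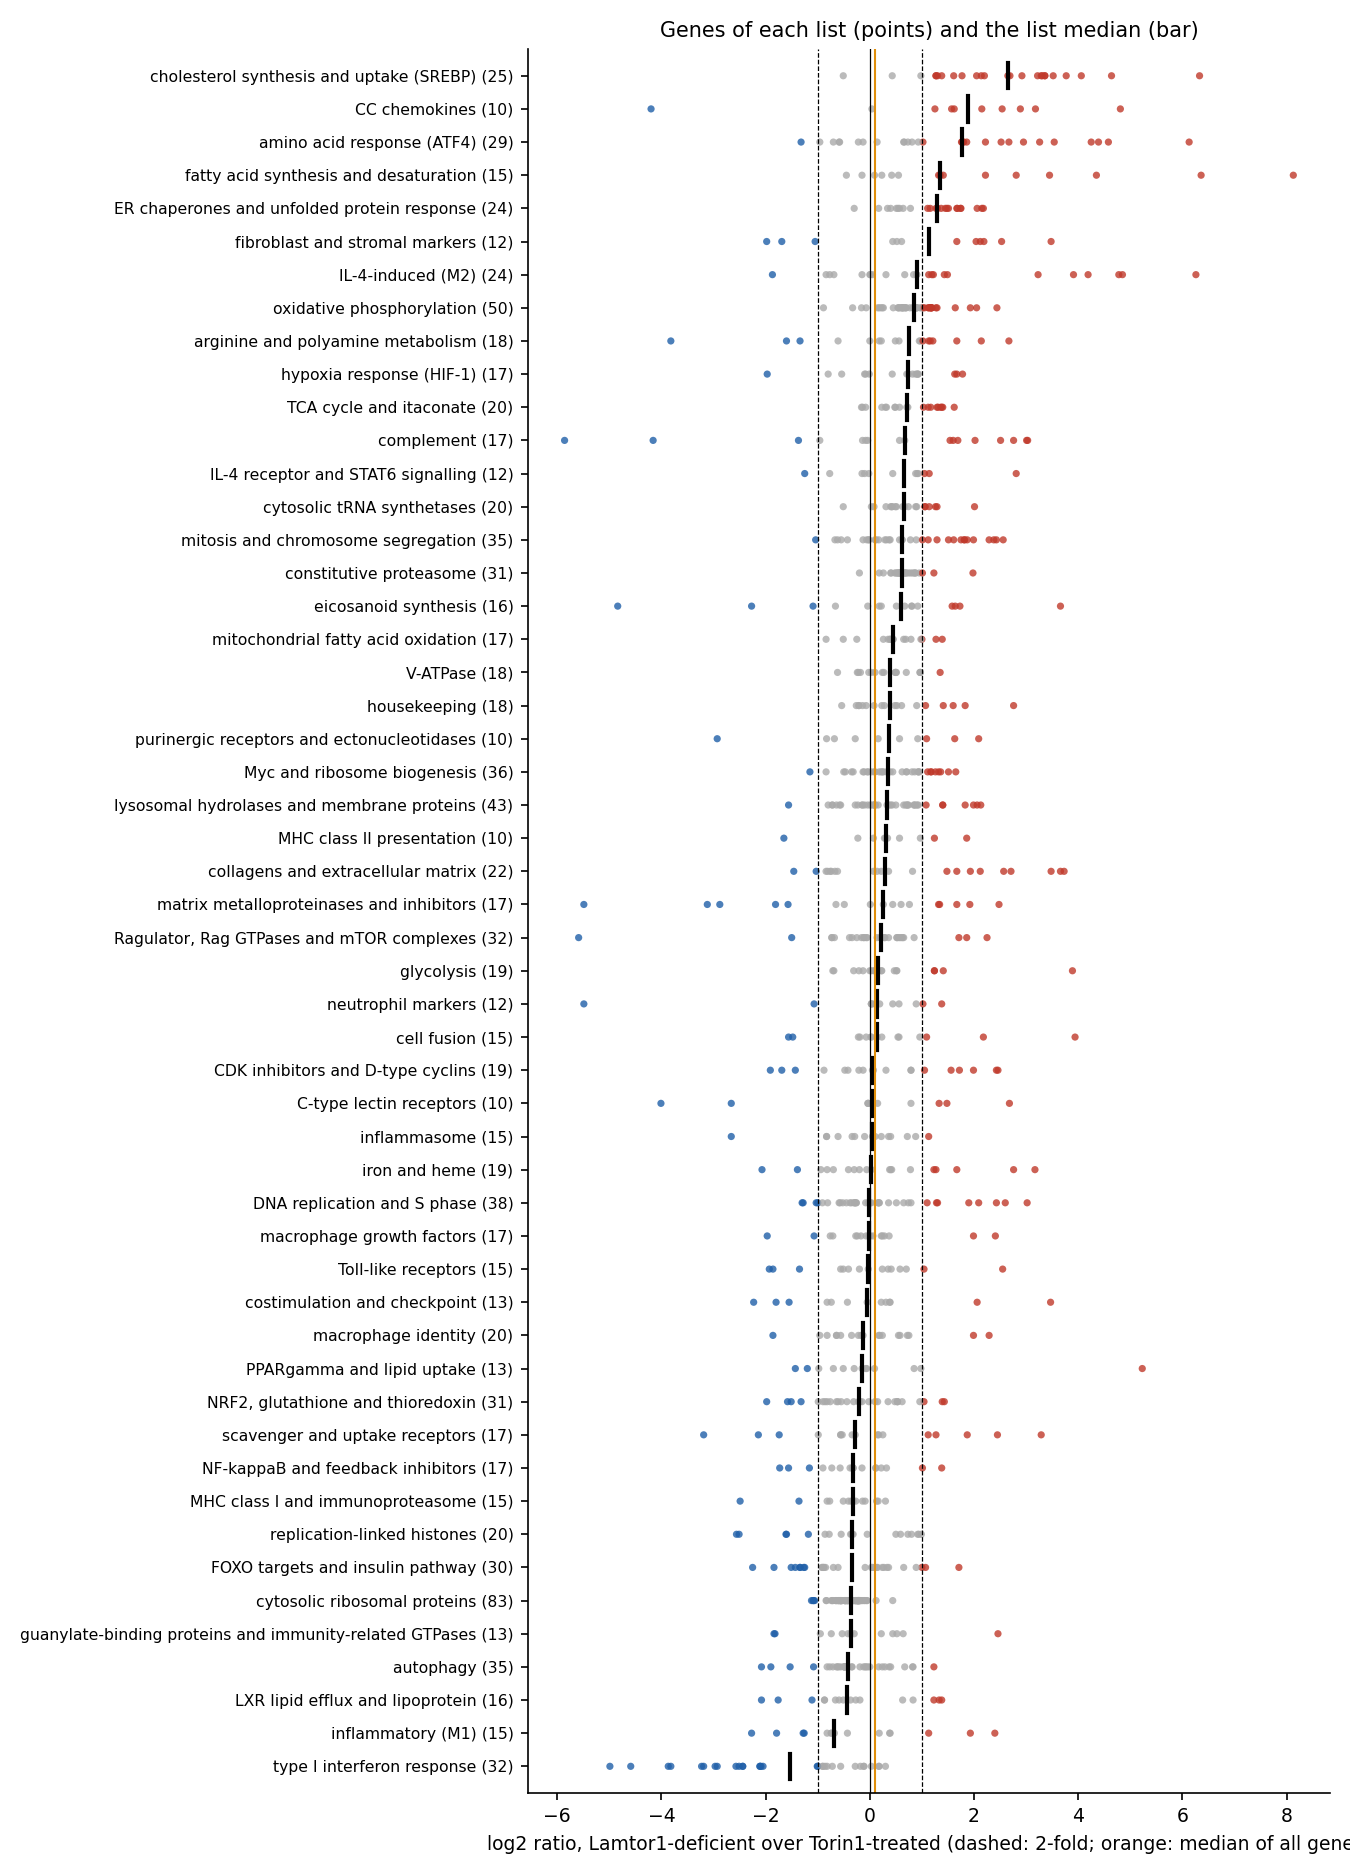
Log2 ratio of Lamtor1-deficient over Torin1-treated BMDMs for every measured gene (points) of each list with 10 or more measured genes, sorted by the list median (black bar), with the number of genes in brackets. Red and blue points lie past 2-fold (dashed lines), and the orange line is the median of all genes, 0.09. Cholesterol synthesis has the highest median, 2.65, and the interferon response the lowest, -1.53.

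Genes on at least 1 list made up 378 of the 3235 genes past 2-fold, and 2857 lay on none. Of the 1141 measured genes on the lists, 33.1% lay past 2-fold, against 22.9% of all genes. The lists were chosen with earlier results of these data known, so this difference is no finding. Among genes on no list with the most extreme ratios, Serpinb1a, an inhibitor of neutrophil proteases, was at 793.8 units in Lamtor1-deficient, 7.804 in Torin1-treated, 705.8 in M2 and 59.81 in M1 BMDMs (102-fold, or a log2 ratio of 5.14 in place of 6.67 with normexp). Plbd1, a phospholipase B-like protein, was at 4240, 63.25, 2645 and 13430 units (67.0-fold). Both were therefore low on the Torin1-treated array alone among the IL-4 arrays. Rbp4, the carrier of retinol, was at 44490 units in Lamtor1-deficient, 728.5 in Torin1-treated, 68.65 in M2 and 8.359 in M1 BMDMs (61.1-fold). D630039A03Rik was at 2544, 9.789, 21.34 and 1.397 units (260-fold, or a log2 ratio of 6.87 in place of 8.02 with normexp), and Rab15, a small GTPase, at 1976, 31.19, 9.141 and 28.27 (63.3-fold, although its log2 ratio was 2.79 as the median of its 2 probes). For these 3 the Lamtor1-deficient array stood above the other 3. At the other end, Fabp7, a fatty acid-binding protein, had the lowest ratio, at 8.649 units in Lamtor1-deficient, 1019 in Torin1-treated, 105.7 in M2 and 84.26 in M1 BMDMs (118-fold, or a log2 ratio of -5.47 in place of -6.88 with normexp). Mgam, a maltase, was at 6.094 against 318.9 units (52.3-fold, or a log2 ratio of -4.22 in place of -5.71 with normexp), Tbx6 at 8.872 against 260.4 (29.4-fold, with a log2 ratio of -3.36 in place of -4.88 as the median of its probes and -3.60 with normexp) and Htra4, a serine protease, at 12.52 against 279.4 (22.3-fold, or a log2 ratio of -3.58 in place of -4.48 with normexp).

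Other genes were well above background on 1 of these arrays only, 659 without Lamtor1 and 1132 under Torin1, and 7649 were so on neither. For 18 more, different probes were well above background on the 2 arrays. Against the lowest level called well above background, 420 of the 659 were at least 2-fold higher in Lamtor1-deficient BMDMs, and 370 of the 1132 in Torin1-treated BMDMs. Of the 420, 214 were well above background on neither the M2 nor the M1 array, and of the 370, 119 were not. After Retnla, the largest bounds in Lamtor1-deficient BMDMs were those of Defa38 (at least 130-fold), Adra2c (91.2), Il17b (63.0), Prm3 (61.9), Slc44a3 (59.0), Efemp1 (57.1) and Myl1 (53.8). Several of these encode proteins of other tissues, such as the intestinal peptide of Defa38 and the sperm protein of Prm3. Each rests on 1 spot, and Defa38, Adra2c, Prm3 and Myl1 were not well above background on any other array. In Torin1-treated BMDMs the largest bounds included those of Trim12a (at least 314-fold), Insrr (33.8), Ly6f (25.9), Olfr65 (22.7), H2bu2 (22.5), Olfr1197 (20.8) and Itgad (16.1). Olfr65 and Olfr1197 were likewise not well above background on any other array.

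Trim12a, a member of a family of antiviral TRIM proteins, was at 0.9194 units in Lamtor1-deficient, 1176 in Torin1-treated, 907.7 in M2 and 8979 in M1 BMDMs, so that only the Lamtor1-deficient array was not well above background. Its probe lies on chromosome 7 at 111448499-111448558 (mm9), 2388 kb from that of Lamtor1 (109060334-109060393). Trim6, 2323 kb from Lamtor1, was also well above background on every array but that one, at 2.207 against 17.12 units (at least 4.58-fold). Within 10 Mb of Lamtor1, 11 genes had a bound of 2-fold or more higher in Torin1-treated BMDMs. Of these, 6 were not well above background on the Lamtor1-deficient array alone. Another 5 had such a bound in Lamtor1-deficient BMDMs. Of the 5, 2 were not well above background on the Torin1-treated array alone, Nlrp10 (at least 4.20-fold) and B3gnt6 (at least 2.17-fold). Among all genes, 167 of the 370 bounds under Torin1 were also well above background in M2 and 205 in M1. For the 420 without Lamtor1 these counts were 174 and 85. The difference between this window and all genes was not tested. Over the 155 genes measured within 10 Mb of Lamtor1, 23 were 2-fold or more higher without Lamtor1 and 23 under Torin1, 29.7% in all, with a median log2 ratio of 0.05. The autosomes and the X chromosome had between 19.9% (chromosome 17) and 26.6% (chromosome 6) of genes past 2-fold, and chromosome 7 had 25.3%. The labels give C57BL/6J for all mice, and the part that the strain of the targeted allele has in these values was not tested.

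The cells had the markers of macrophages on both arrays. Of 20 measured macrophage identity genes, 2 were 2-fold or more higher without Lamtor1 and 1 under Torin1 (median -0.14), against 4 and 1 when the arrays were shifted to their medians and 2 and 3 with quantile normalization. Csf1r, the receptor of macrophage colony-stimulating factor, was at 35740 against 40200 units (-0.17), Cd68 at 7197 against 7975 (-0.15), and Adgre1, which encodes F4/80, at 1878 against 1590 (0.24), with 11160 in M2. Lyz2, at whose locus the LysM-Cre transgene lies, was at 17730 against 11830 units (0.58). Those past 2-fold included Aif1 (2.29) and Cd14. Of 18 housekeeping genes, 5 were higher without Lamtor1 and 0 under Torin1 (median 0.38), whereas Gapdh (0.08), Actb (0.28) and Tbp (-0.07) lay close to 0. Xist was measured on all 4 arrays and was higher in Torin1-treated BMDMs (-1.49), at 136.5 against 383.3 units, and the 6 Y-linked genes on the same list were below background on both arrays compared.

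Markers of other cells that a marrow culture may hold were also read. Of 12 fibroblast and stromal markers, 6 were 2-fold or more higher without Lamtor1 and 3 under Torin1, with a median log2 ratio of 1.14. Col3a1 (3.48, or 2.75 with normexp), Dcn (2.53), Thy1 (2.19, or 1.59 with normexp), Col1a1 (2.12), Pdgfra (2.04, or 1.41 with normexp) and Col1a2 (1.67) were the 6, and Postn (-1.98), Acta2 (-1.69) and Fap (-1.05) were the 3, while Fbln1 (at least 3.60-fold higher) and Mfap5 (3.44) were well above background only in Lamtor1-deficient BMDMs, 0 markers only in Torin1-treated BMDMs, and Lum on neither array. The list median relative to all genes was 1.05, and it was 1.67 with dim signals raised to the lowest level well above background and 1.92 with no filter. These markers stood on the same side as the collagen list above, which shares Col1a1, Col1a2 and Col3a1, and their part in it was not tested. Of 12 neutrophil markers the counts were 2 and 2 (median 0.14), and S100a8 and S100a9 were level (0.03 for each). Mmp8 is on this list as well, and of the other 11 markers only Csf3r was 2-fold or more higher in Torin1-treated BMDMs, whereas Ltf (1.38, or 0.45 with normexp) and Mpo (1.02, or 0.58 with normexp) were higher in Lamtor1-deficient BMDMs. On 1 array only, 2 were well above background in Lamtor1-deficient BMDMs and Retnlg (at least 5.74-fold higher) in Torin1-treated BMDMs. Of 7 measured lymphocyte markers, Gzma (3.96, or 2.58 with normexp) and Cd79b (2.60, or 1.15 with normexp) were higher in Lamtor1-deficient BMDMs (median 0.33), and 5 more, Ncr1 (at least 6.82-fold higher), Cd3d (4.73), Cd8b1 (3.06), Cd8a (2.58) and Cd3g (1.95), were well above background only there, against 0 only in Torin1-treated BMDMs. Ms4a1 and Pax5 were below background on both arrays. The list median relative to all genes went from 0.24 to 0.54 with no filter on dim probes and to 1.12 with dim signals raised to the lowest level well above background, which is called the floor here. Of 6 dendritic cell markers, Batf3 (3.29) and Ccr7 were higher in Lamtor1-deficient BMDMs (median 0.03), and Clec9a (at least 3.81-fold higher) and Flt3 (1.94) were well above background only in Torin1-treated BMDMs. With the floor the list median relative to all genes went from -0.06 to -0.56. Of the eosinophil, basophil and mast cell markers only Tpsb2 was measured on both arrays, at 21.07 units without Lamtor1 against 84.14 under Torin1, while 2 were well above background only in Lamtor1-deficient BMDMs, Hdc (at least 10.2-fold higher) and Prg2 (1.45), and 3 only in Torin1-treated BMDMs, among them Il5ra (at least 3.72-fold higher) and Gata2 (3.00). Epx, Mcpt8 and Cpa3 were below background on both arrays.

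The threshold divides neighbours that do not differ. Just inside it lay Tmsb10, Ikzf1 and Pafah1b2, higher in Lamtor1-deficient BMDMs, and Phf21a, Dgka and Mcm5, higher in Torin1-treated BMDMs. Just outside lay Ezr, Hadhb and Ltbp1, and Dvl2, Neat1 and Xab2. All 12 ratios equalled the threshold when rounded to 2 decimals, and 1012 genes lay within 0.1 of the threshold. The share of genes past 2-fold was 27.4% and 28.4% in the lower parts of the range of mean levels, cut into 4 equal groups of genes, and 18.9% and 16.8% in the upper ones. Of the 703 genes past 2-fold with several measured probes, all probes lay past 2-fold in the same direction for 383 (54.5%), and 17 had a probe past 2-fold in the other direction. Over all 26873 measured probes, which include those without a gene symbol, 2963 were 2-fold or more higher without Lamtor1 and 3298 under Torin1. The 4890 probes of lincRNA loci had a median log2 ratio of -0.19, with 266 higher without Lamtor1 and 952 under Torin1.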

How the data were processed

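RNA from 4 BMDM cultures was hybridised to 1-colour Agilent arrays with 62976 spots, 1 array per condition. The deposited values are scanner intensities that the authors obtained with Agilent Feature Extraction (version 10.5.1.1 in the submitters' processing notes, 10.7.3.1 in the file headers), background-subtracted by that software, with probe positions on mm9. The log2 or normalized values the authors worked with were not used here, and the values of the series table differed from the scanner intensities by at most 0.497%. Control spots and outlier-flagged spots (217 and 223 on the arrays compared) were left out, spots of a probe were averaged, signals below 1.0 were raised to it, and each array was scaled so that its 75th percentile was 100 units. The 75th percentile signal was 536.2 without Lamtor1 and 470 under Torin1. With 1 array per condition the number of arrays limits the precision, and no test was made.

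A gene took the probe that was brightest over both arrays among those well above background on both. Symbols were updated through the RefSeq table (21966 genes) or kept as on the array (1642). Where a probe was well above background on 1 array only, its level there was divided by the higher of the other array's lowest level well above background and the probe's own level, and the quotient is given as "at least". The named genes were Lamtor1, the 10 highest and 10 lowest ratios, up to 6 members past 2-fold of each of 60 lists, the 8 largest bounds on each side, 3 genes on each side of each threshold, and a fixed set of IL-4, inflammatory, LXR and SREBP genes. Other genes named were chosen after their values were seen. Some genes are counted in the lists but not reported or drawn by name here. The comparison and the lists were chosen with earlier results of these data known. A gene on several lists is counted in each.

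Alternatives covered the scaling, normexp background correction (offset 50), outlier spots, the filter on dim probes, the choice of probe, the threshold, the series table and the gene names. The steps were tested on simulated data. Python 3.11.15, NumPy 2.4.6, pandas 2.3.3, matplotlib 3.10.9, R 4.3.3 and limma 3.58.1 were used.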

Additional observations from a re-analysis of the deposited data

How the results depend on the processing

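No paired analysis was possible because each condition had 1 array, and no replicate could be left out for the same reason. The 3235 genes past 2-fold (1827 higher without Lamtor1 and 1408 under Torin1) became 5795 (2757 and 3038) with no filter on dim probes, where 23584 genes were counted, and 1398 (741 and 657) at 3-fold. With a shift to the array median 3077 genes were higher in Lamtor1-deficient BMDMs. The other alternatives gave between 2491 (normexp) and 4045 (a floor for dim probes) genes past 2-fold, and the shift to the median gave 4028. Relative to all genes, the list median changed sign with quantile normalization for the Ragulator and mTOR list (-0.04) and for metalloproteinases (-0.03), with no filter for CXC chemokines (0.02) and costimulation (0.04), with the floor for CXC chemokines (0.18), and with the median over probes for costimulation (0.05). The cause of these changes was not tested. The medians of 7 more lists, at most 0.06 from that of all genes, also changed sign under an alternative, and reached at most 0.19. Of 289 named ratios, those of Nr1h2 (0.04 with the shift to the median) and Nos2 (-0.06 with quantile normalization) changed sign, both within 2-fold. Of the 283 past 2-fold, 256 remained so with normexp, 264 with quantile normalization and 274 with the median over probes. Levels near the background limit what the ratios of dim genes can show.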
